A study of Mus musculus with 16 samples.

Results

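Expression of 10 immediate early genes was followed in cortical parvalbumin (PV) interneurons of the mouse. They are Fos, Fosb, Junb, Egr1, Egr3, Npas4, Arc, Nr4a1, Ier2 and Dusp1, a list set by name, and all 10 were found among the 54532 genes of the deposited count table. RNA was sequenced from PV cells sorted by flow cytometry out of brain cortex, after fixation for 15 min in 4% paraformaldehyde. Per the labels, 7 libraries came from PV-Cre lsl-eGFP-GluA2 mice, whose PV cells express GluA2 fused to eGFP, and 9 came from PV-Cre lsl-eGFP mice, whose PV cells express eGFP alone and serve as the control. All mice carry PV-Cre, so both groups express a fluorescent transgene in cells defined by the parvalbumin driver. The study asks what follows when calcium-permeable AMPA receptors are removed from these cells. Their age is given as 113.1 ± 11.6 days for the study as a whole, and libraries are numbered as biological replicates, each from over 20K sorted cells of a cortex.

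Immediate early genes are transcribed within minutes of a stimulus, without new protein synthesis, by factors that already sit in the cell, among them SRF with its ELK partners, CREB and MEF2. In neurons the usual trigger is calcium that enters through synaptic receptors and voltage-gated channels, and the transcripts are short-lived. Fos, Fosb and Junb encode subunits of the AP-1 transcription factor, Egr1 and Egr3 zinc-finger transcription factors, and Npas4 a transcription factor of neurons that depends closely on calcium. Nr4a1 encodes an orphan nuclear receptor, Ier2 a small nuclear protein, Arc a synaptic protein that promotes removal of AMPA receptors from the surface, and Dusp1 a phosphatase that switches MAP kinases off. Per the labels, enzymatic digestion of the tissue came before fixation here.

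On GRCm38 the AP-1 genes were annotated with Fos (ENSMUSG00000021250) at chr12:85473890-85477273 on the plus strand, Fosb (ENSMUSG00000003545) at chr7:19302696-19310051 on the minus strand and Junb (ENSMUSG00000052837) at chr8:84974484-84978718 on the minus strand. Of the other transcription factor genes, Egr1 is ENSMUSG00000038418, and Egr3 (ENSMUSG00000033730) was at chr14:70077203-70082614 on the plus strand. Next come Npas4 (ENSMUSG00000045903) at chr19:4984355-4990316 on the minus strand and Nr4a1 (ENSMUSG00000023034) at chr15:101254269-101274795 on the plus strand. The rest are Arc (ENSMUSG00000022602) at chr15:74669083-74672570 on the minus strand, Ier2 (ENSMUSG00000053560) at chr8:84661331-84662852 on the minus strand and Dusp1 (ENSMUSG00000024190) at chr17:26505590-26562128 on the minus strand.

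Promoter sequence is given for 6 of the 10 genes, from RefSeq tables on GRCm38.p6. None was at hand for Egr3, Arc and Ier2, and that of Egr1 is not reported here. The 250 bases before the RefSeq start in those tables were searched on both strands. For Npas4, Nr4a1 and Dusp1 that start lies inside the gene span given above. TGACG, the core of the site that CREB binds, was present in 6 of 6, against 17.8% of 32851 promoters. Its full palindrome TGACGTCA, which contains TGACG on either strand, was present in Dusp1 alone, against 1.55% of all promoters. The CArG box bound by SRF was in 0 of 6 windows of this length, against 1.47%. The stretch that holds these letters is shown for each gene on the strand of the gene, with TGACG, its reverse complement CGTCA and the palindrome in capitals, and with up to 15 bases on either side. These matches describe letters only and were not measured as binding.
Fos, chr12:85473746-85473843, plus strand: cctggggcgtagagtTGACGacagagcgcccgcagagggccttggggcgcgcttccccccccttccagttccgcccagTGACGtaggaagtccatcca
Fosb, chr7:19310086-19310120, minus strand: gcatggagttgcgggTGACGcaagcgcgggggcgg
Junb, chr8:84978835-84978869, minus strand: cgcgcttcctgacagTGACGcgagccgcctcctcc
Npas4, chr19:4990121-4990165, minus strand: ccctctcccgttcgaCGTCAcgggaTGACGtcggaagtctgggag
Nr4a1, chr15:101266598-101266825, plus strand: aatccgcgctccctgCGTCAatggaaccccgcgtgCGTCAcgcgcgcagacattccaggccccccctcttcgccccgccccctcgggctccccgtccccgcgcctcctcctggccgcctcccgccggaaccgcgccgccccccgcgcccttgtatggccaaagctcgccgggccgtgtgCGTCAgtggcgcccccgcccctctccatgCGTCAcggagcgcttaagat
Dusp1, chr17:26508593-26508678, minus strand: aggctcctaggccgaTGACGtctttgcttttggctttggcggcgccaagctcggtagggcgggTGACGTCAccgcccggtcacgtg
Fos held TGACG at 2 places and Nr4a1 held CGTCA at 4, Npas4 and Dusp1 held both forms, and Fosb and Junb had a single copy.

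The sorted cells carried the markers of PV interneurons. Gad1, the GABA-synthesising enzyme, was at 1125 to 3167 CPM (counts scaled to the library total) in eGFP-GluA2 libraries and 1010 to 3518 CPM in eGFP libraries, and Pvalb, which encodes parvalbumin, at 127 to 357 CPM in eGFP-GluA2 and 85.5 to 461 CPM in eGFP libraries. Erbb4, the other most abundant PV marker, had a median of 1825 CPM in eGFP-GluA2 and 2023 CPM in eGFP libraries. Slc17a7, the vesicular glutamate transporter of excitatory neurons, was at 21.1 to 68.5 CPM in eGFP-GluA2 and 19.5 to 46.2 CPM in eGFP libraries. Gria2, the gene of the subunit that the transgene adds, had a median of 928 CPM in eGFP-GluA2 libraries and 542 CPM in eGFP libraries. Libraries held 7454165 to 15462544 counts. They differed in reads from 1721 autosomal olfactory and vomeronasal receptor genes, which serve smell. These reads, called the background here, ran from 92.8 to 4407 CPM of the plain library total, without TMM scaling. It was high (over 1500 CPM) in eGFP-GluA2 replicates 1 and 3 as well as eGFP replicates 1 to 4, low (under 500 CPM) in eGFP-GluA2 replicates 6 and 7 as well as eGFP replicates 7 to 9, and in the middle in the other 5.

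All 10 immediate early genes were detected in all 16 libraries, at low to moderate levels, with 13 counts as the lowest value of any of them. In TPM, an abundance scaled for transcript length, which lets genes of unlike length be compared, Dusp1 came first with a mean of 14.4 ± 3.95 TPM (SD, n = 16). Junb followed at 5.38 ± 2.14 TPM, Fos at 4.36 ± 2.98 TPM and Nr4a1 at 4.11 ± 2.41 TPM. Egr1 averaged 2.07 ± 1.17 TPM, Fosb 1.76 ± 1.53 TPM, Ier2 1.5 ± 0.41 TPM and Arc 1.33 ± 0.73 TPM, and the lowest were Npas4 at 0.93 ± 0.42 TPM and Egr3 at 0.83 ± 0.38 TPM. Of the 9 steps in this order, 3 exceeded the SD of the log2 ratio between neighbours. Dusp1 was above Junb in 16 of 16 libraries, Nr4a1 above Egr1 in 16 of 16 and Arc above Npas4 in 14 of 16. The other 6 steps between neighbours stayed within that spread, and genes further apart in the order were not compared. Over all genes of the series, 5167 had a higher mean TPM than Dusp1 and 22166 a higher mean than Egr3.

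None of the 10 genes passed the test between the genotypes. In edgeR's quasi-likelihood test with Benjamini-Hochberg adjustment 0 of 10 passed an adjusted p of 0.05, against 0.00381% of all 26257 genes tested, which is a single gene. At an unadjusted p under 0.05 there were also 0 of 10, against 1.12% of all genes. The log2 fold change of eGFP-GluA2 over eGFP was above 0 for 8 of 10 (6 with library size only, 10 on TPM), with a median of 0.18, while 45.5% of all genes were above 0 and their median was -0.02. Without eGFP replicates 8 and 9, which were low for most of these genes as described below, 3 of 10 were above 0. All adjusted p-values were 1.00, and the upper bounds of the 95% intervals ran from 1.16-fold in Dusp1 to 2.15-fold in Egr1. In bulk RNA of sorted cells, fewer cells expressing a gene and less RNA of it per cell cannot be told apart.

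**Figure D1:**
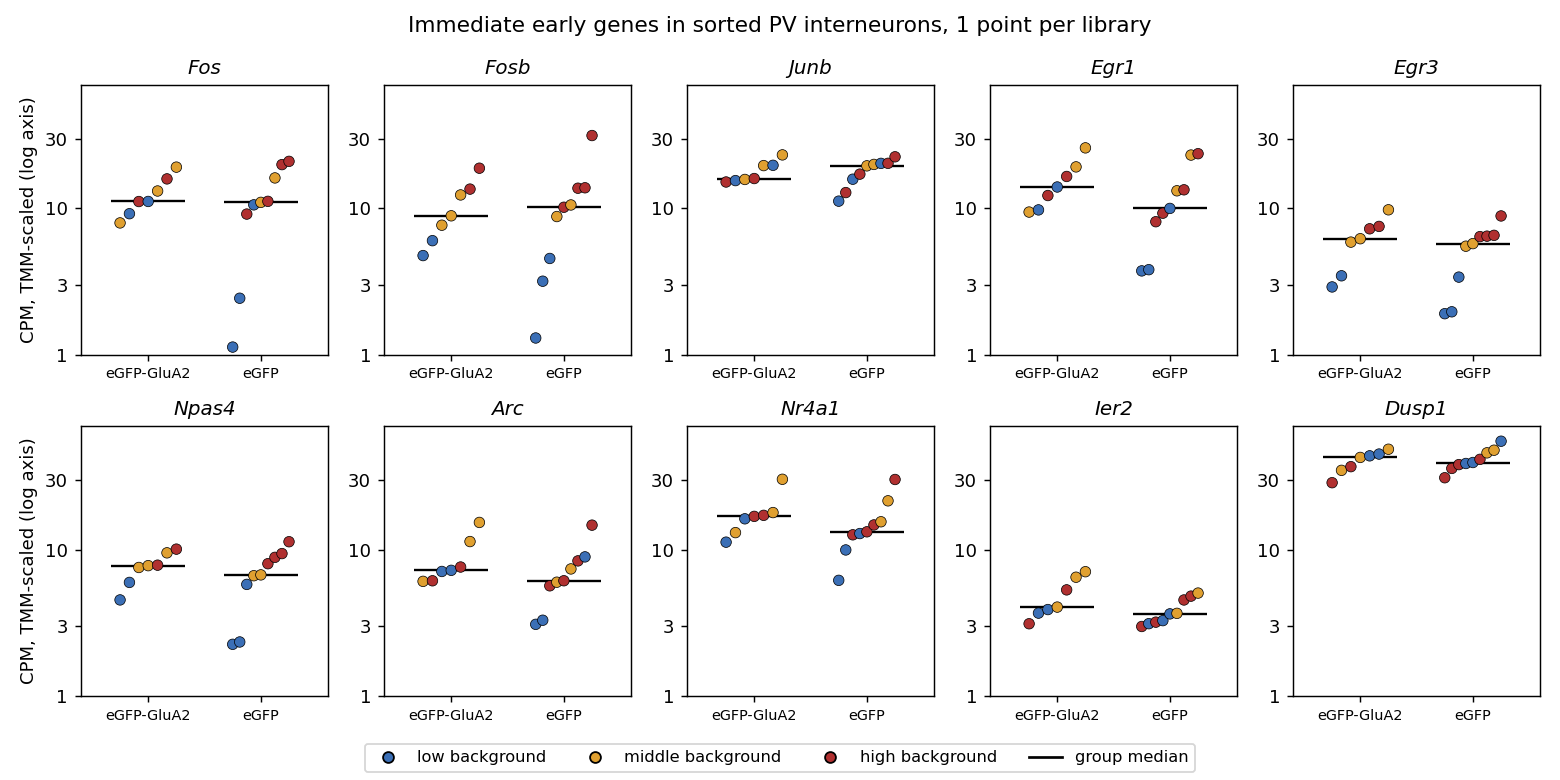
Level of each immediate early gene in every library, in TMM-scaled CPM on a log axis, with eGFP-GluA2 (n = 7) on the left and eGFP (n = 9) on the right of each panel and the bar at the group median. Points are coloured by background. Groups overlap in every panel, and the lowest points of Fos (1.13 and 2.43 CPM) belong to the eGFP group.

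Among the AP-1 subunits, Fos had 7.96, 11.2 and 19.2 CPM as lowest, median and highest values in eGFP-GluA2 libraries, against 1.13, 11 and 21 CPM in eGFP libraries. All 7 eGFP-GluA2 libraries lay inside the eGFP range, while eGFP replicates 8 and 9 fell below all of them and eGFP replicates 1 and 4 above all of them. The log2 fold change was 0.13 ± 0.42 (SE; 95% interval -0.76 to 1.03, or 0.591-fold to 2.04-fold). The lowest values were few reads, 26 counts in eGFP replicate 8 (95% exact Poisson interval 17.0 to 38.1) and 13 in eGFP replicate 9 (6.92 to 22.2), intervals that cover counting error only.

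Fosb had 4.76, 8.91 and 18.9 CPM (lowest, median, highest) in eGFP-GluA2 and 1.3, 10.2 and 31.5 CPM in eGFP libraries. It ran over a wider range than Fos among eGFP libraries, where the highest was 24.3 times the lowest. Its log2 fold change was -0.08 ± 0.48 (95% interval -1.10 to 0.94). Junb, the most even of the AP-1 genes, had 15.2, 16 and 23.3 CPM in eGFP-GluA2 and 11.2, 19.6 and 22.6 CPM in eGFP libraries. Its log2 fold change was 0.01 ± 0.14 (95% interval -0.30 to 0.31), and its sign turned under other scalings of the counts. Junb shares part of its span with Prdx2 on the other strand, and no source used here says whether counting was strand-specific.

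Egr1 had 9.45, 14 and 26 CPM in eGFP-GluA2 and 3.74, 10 and 23.7 CPM in eGFP libraries. Among the eGFP libraries, replicates 2, 3, 8 and 9 were below every eGFP-GluA2 library, and eGFP-GluA2 replicate 5 was above every eGFP library. The log2 fold change was 0.34 ± 0.36 (SE; 95% interval -0.42 to 1.10), the largest of the 10 estimates. Egr3 had 2.90, 6.21 and 9.79 CPM in eGFP-GluA2 and 1.91, 5.75 and 8.89 CPM in eGFP libraries, with a log2 fold change of 0.24 ± 0.32. In both genotypes its low values came from low-background libraries.

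Npas4, whose induction in neurons follows calcium entry, had 4.53, 7.78 and 10.1 CPM in eGFP-GluA2 and 2.25, 6.73 and 11.3 CPM in eGFP libraries. Its log2 fold change was 0.15 ± 0.30 (95% interval -0.47 to 0.78). Nr4a1 had 11.3, 16.9 and 30.3 CPM in eGFP-GluA2 and 6.17, 13.3 and 30.2 CPM in eGFP libraries, with a log2 fold change of 0.20 ± 0.27. For both genes eGFP replicates 8 and 9 lay below every eGFP-GluA2 library, and the other eGFP libraries overlapped with them.

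Arc, the effector at the synapse, had 6.07, 7.22 and 15.4 CPM in eGFP-GluA2 and 3.09, 6.13 and 14.7 CPM in eGFP libraries, and its log2 fold change was 0.29 ± 0.30 (95% interval -0.33 to 0.92). Ier2 had 3.11, 4.05 and 7.07 CPM in eGFP-GluA2 and 2.98, 3.64 and 5.05 CPM in eGFP libraries. In CPM 3 eGFP-GluA2 libraries were above every eGFP library, the most of any of the 10 genes. The share of all genes with such a count was not taken. In TPM eGFP replicate 1, at 2.41, was above every eGFP-GluA2 library (highest 2.07). The log2 fold change of Ier2, 0.33 ± 0.20 (95% interval -0.08 to 0.74), had the smallest unadjusted p, 0.108 in edgeR, with an adjusted p of 1.00. Dusp1, the feedback phosphatase, had 28.7, 42.8 and 48.7 CPM in eGFP-GluA2 and 31.1, 39.5 and 55.2 CPM in eGFP libraries. Its log2 fold change was -0.05 ± 0.13 (95% interval -0.32 to 0.22, or 0.802-fold to 1.16-fold, in this fit). On log2(TPM + 0.5), in limma, it was 0.02 ± 0.19. The annotated span of Dusp1 overlaps 4 other genes, Ergic1 among them.

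**Figure D2:**
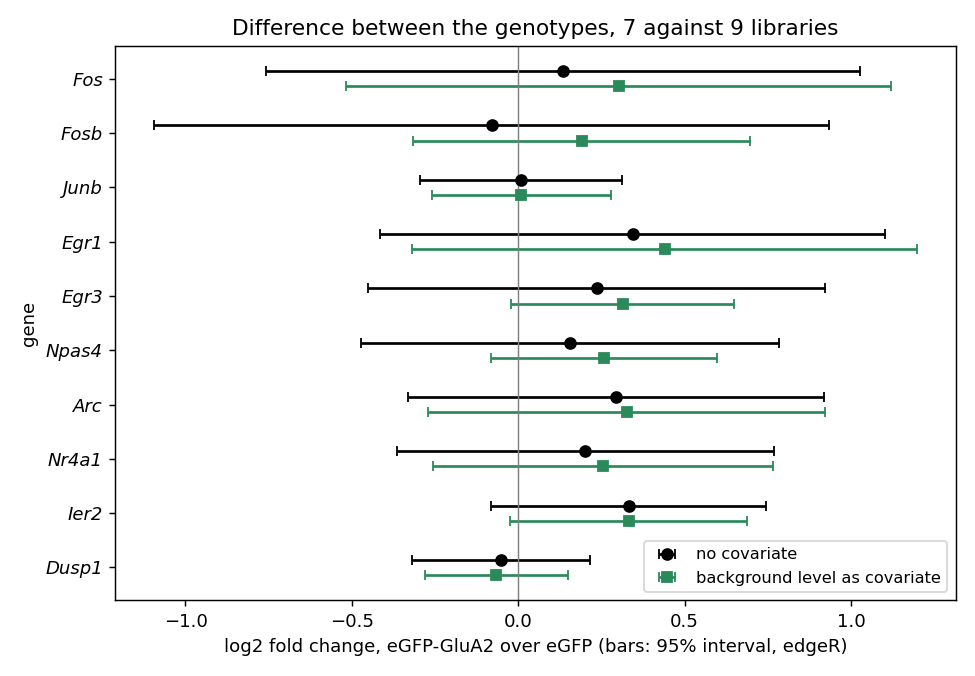
Log2 fold change of eGFP-GluA2 over eGFP for each gene, with 95% intervals from edgeR, without a covariate (circles) and adjusted for the background level (squares). Every interval includes 0, and the narrowest belong to Junb and Dusp1.

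With the background level as a covariate the intervals narrowed for several genes, and still 0 of 10 passed, against 0.0343% of all genes, which is 9 genes. Estimates were above 0 for 9 of 10, against 53.1% of all genes, with a median of 0.28. Egr3 reached 0.31 ± 0.16 (unadjusted p = 0.0657) and Ier2 0.33 ± 0.17 (unadjusted p = 0.0665), both with an adjusted p of 1.00 in edgeR. DESeq2 called 0 of 10 as well, against 0.0174% of all genes. The authors' deposited table gives log2 fold changes from -0.07 for Dusp1 to 0.19 for Ier2, each with an adjusted p of 1.00. There Fos (-0.02) and Junb (-0.06) were below 0, unlike in the edgeR fit without a covariate. The SE of Fos was 0.14 in that table, against 0.42 in edgeR, so the estimates are not directly alike.

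The lean towards eGFP-GluA2 was absent without eGFP replicates 8 and 9, which were low for most of these genes. Its cause was not tested. For 7 of the 10 genes (Fos, Fosb, Egr1, Egr3, Npas4, Arc and Nr4a1) eGFP replicates 8 and 9 both lay below every eGFP-GluA2 library, which was so for 5.66% of all genes tested. Replicate 8 was among the lowest 2 libraries for 8 genes and replicate 9 for 7. The summed level of the 10 genes was 115 to 202 CPM in eGFP-GluA2 libraries, with a median of 130, and 76.3 to 184 CPM in eGFP libraries, with a median of 135. At the other end, eGFP-GluA2 replicate 5 was highest for 6 genes by CPM and for 0 by TPM, where eGFP replicate 1 was highest for 6 and eGFP replicate 4 for 4. Leaving out eGFP replicates 8 and 9, Fos had a log2 fold change of -0.23 ± 0.24, Npas4 -0.14 ± 0.22 and Egr3 -0.04 ± 0.28 (SE), with 3 of 10 genes above 0. Leaving out either of these alone, or eGFP-GluA2 replicate 5 alone, left 6 of 10 above 0.

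The mean log2 CPM of the 18 excitatory markers was 3.48 in eGFP replicate 8 and 3.56 in eGFP replicate 9, and 3.83 to 4.23 in the other 14 libraries. None of the 18 was at 0 in any library, and Rasgrf2 and Cux2 were the most abundant. Their summed level was 685 to 1214 CPM in eGFP-GluA2 and 634 to 1142 CPM in eGFP libraries. By this sum eGFP replicates 8 and 9 were not the lowest, at 1056 and 1046 CPM. Ptgs2, which neurons also induce as an early gene, is on that list. With this marker level as a covariate 1 of 10 genes was above 0 and again 0 passed in edgeR, the lowest adjusted p being 0.197 (Egr3, -0.38 ± 0.16). Over all genes 43.6% were above 0 in that fit, with a median of -0.09. At an unadjusted p under 0.05 there were 2 of the 10 genes and 6283 of all 26257, against 293 of all genes without the covariate. The part of excitatory RNA in the levels of the early genes was not tested.

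**Figure D3:**
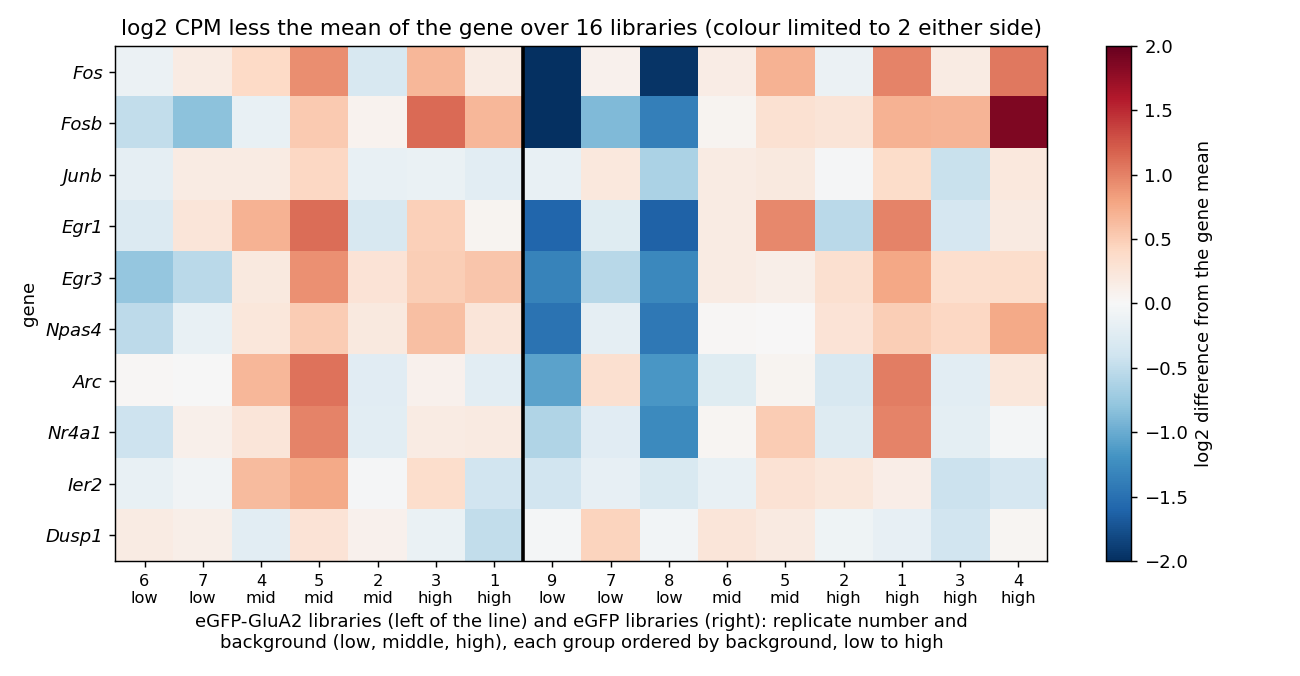
Log2 CPM of each gene less its mean over 16 libraries, eGFP-GluA2 left of the line and eGFP right of it, each ordered by background. The columns of eGFP replicates 8 and 9 are blue for nearly all genes, and eGFP-GluA2 replicate 5 is red for all 10.

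Several of the 10 genes changed with the background, but no more often than genes at large, as the shares below show. For each doubling of the background, with genotype in the model, Fosb rose by 0.43 ± 0.06 on the log2 scale (SE; adjusted p = 3.64e-06), Egr3 by 0.28 ± 0.04 (1.22e-06), Npas4 by 0.23 ± 0.04 (1.42e-05) and Fos by 0.23 ± 0.09 (0.0432), all in edgeR. Dusp1 fell by 0.07 ± 0.03 (adjusted p = 0.0241), but had a slope of 0.04 when counts were scaled by library size only. Thus 4 of 10 were called higher, against 44% of all genes, and 1 of 10 lower, against 31.5%. On log2(TPM + 0.5), in limma, the slopes of Egr3 and Npas4 were 0.13 ± 0.04 (adjusted p = 0.0202) and 0.14 ± 0.04 (0.0128), against a median of 0.07 over all genes. Nr4a1 (0.13 ± 0.06), Egr1 (0.17 ± 0.09), Arc (0.09 ± 0.07), Ier2 (0.04 ± 0.04) and Junb (0.01 ± 0.03) did not pass. Relative to the median slope of all genes, 0.04 with TMM scaling and 0.15 with library size only, Fosb was 0.39 and 0.40 steeper.

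The tiers show the same values directly. Fosb had a median of 4.55 CPM in the 5 low-background libraries, 8.91 CPM in the 5 middle and 13.8 CPM in the 6 high, and Egr3 2.90, 5.88 and 6.90 CPM in that order. In CPM no low-background library reached the lowest of the others for either gene. In TPM the tiers overlapped, and the medians of Egr3 were 0.67, 0.68 and 1.12 TPM, those of Fosb 0.72, 1.21 and 2.69 TPM. Arc had medians of 7.10, 7.39 and 6.87 CPM, and Dusp1 had 43.9, 46.0 and 36.5 CPM.

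The call for Fos was fragile. Its adjusted p rose over 0.05 when any of 7 libraries was left out: eGFP replicate 1, 4, 6, 8 or 9, or eGFP-GluA2 replicate 3 or 6, with slopes of 0.16 to 0.23. Dusp1 lost its call without any of 9 libraries, which are eGFP replicates 1, 2, 3, 5 and 7 as well as eGFP-GluA2 replicates 1, 2, 4 and 5. Without eGFP replicate 1, 3 of 10 genes passed, and the share of all genes in that fit is not given.

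**Figure D4:**
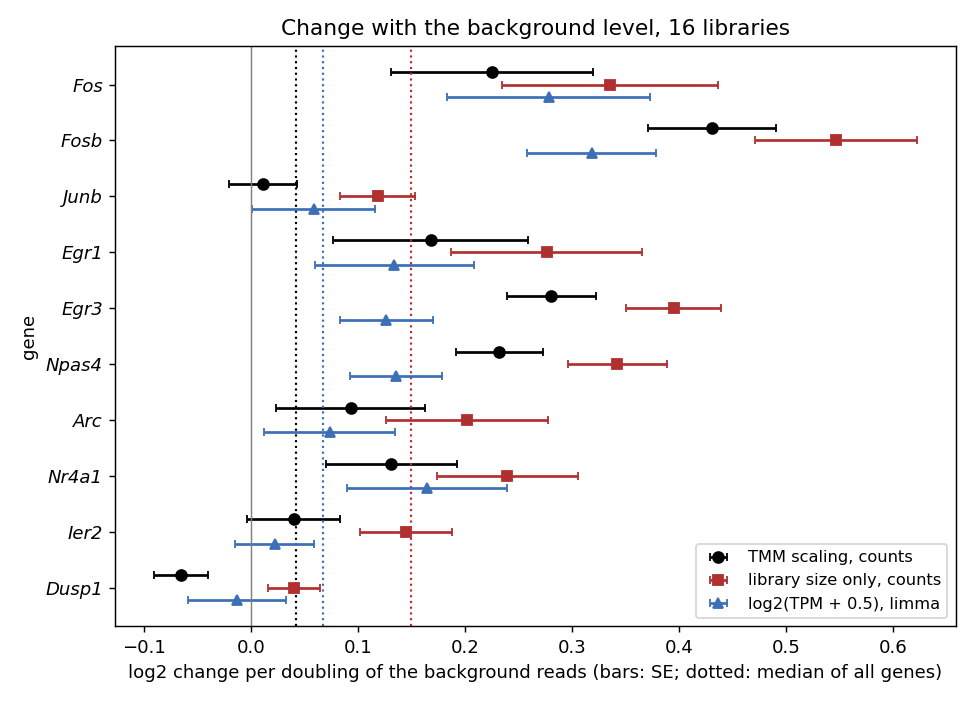
Change of each gene per doubling of the background reads over 16 libraries, on the log2 scale with SE, from TMM-scaled counts, counts scaled by library size only and log2(TPM + 0.5). Dotted lines mark the median of all genes. Fosb has the steepest slope on all 3 scales, at 0.43, 0.55 and 0.32.

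The reads of the early genes exceeded the background density itself. Per kilobase of exon each gene was above the 95th percentile of the receptor genes in 16 of 16 libraries. In high-background libraries, the median receptor density over the exon length of Egr3 would equal 28.8% of its counts (median of 6 libraries), with 38.9% as the highest, in eGFP replicate 4. For Dusp1 it would equal 4.20%. With that density taken off, the median of high-background libraries was 2.42 times that of low-background ones for Fosb, 1.72 times for Egr3 and 1.61 times for Npas4. It was 1.35 times for Fos, 1.24 for Nr4a1, 1.06 for Egr1, 0.99 for Junb, 0.86 for Ier2, 0.801 for Dusp1 and 0.767 for Arc. The median density was 0 in low-background libraries, so nothing was taken off there. Whether stray reads over these genes were denser than that median was not tested.

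Within the tiers the genotypes were compared by differences of mean log2 CPM and were not tested. The shares of all genes above 0 or without overlap in a tier were not counted, and the groups are very small. In the low tier (2 eGFP-GluA2, 3 eGFP) all 10 differences were above 0, and Fos was 1.63 higher in eGFP-GluA2. The groups did not overlap there for Fosb (0.95 higher) and Ier2 (0.17 higher). That tier holds eGFP replicates 8 and 9, while eGFP replicate 7, at 10.6 CPM of Fos, lay between eGFP-GluA2 replicate 7 at 11.2 CPM and replicate 6 at 9.21 CPM. In the middle tier (3 eGFP-GluA2, 2 eGFP) differences ran from -0.17 for Dusp1 to 0.60 for Arc, and Fos differed by -0.08. In that middle tier the groups did not overlap for Egr3 and Npas4, 0.33 and 0.30 higher in eGFP-GluA2. In the high tier (2 eGFP-GluA2, 4 eGFP) the groups overlapped for all 10 genes, from -0.24 for Arc to 0.19 for Egr1.

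After genotype and background were fitted, the SD of Fos was 0.89 on the log2 scale, higher than that of 99.6% of tested genes. With genotype alone fitted its SD was 1.07, higher than that of 74.1% of tested genes. Egr1 had 0.72, Arc 0.59, Fosb 0.55 and Nr4a1 0.51, against a median of 0.31 over all genes. Junb at 0.31, Egr3 at 0.35, Ier2 at 0.35 and Npas4 at 0.40 were nearer to that median, and Dusp1 was below it at 0.22. That median covers many genes of low level. Among genes with a mean log2 CPM of at least 3 the median was 0.21. Junb was above 83.8% of these genes and Dusp1 above 52.4%. Egr3, Ier2 and Npas4 had a mean log2 CPM below 3.

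The 10 genes moved together from library to library. Of the 45 pairs, 45 had a positive Pearson r of these residuals over 16 libraries, with a median of 0.65, from 0.11 for Fosb with Ier2 to 0.90 for Egr1 with Nr4a1. Fos and Npas4 also had an r of 0.90. Over the 14 libraries without eGFP replicates 8 and 9, 45 of 45 stayed positive with a median of 0.63. These libraries share depth and scaling factors within each column, so the values are a description. Of the genes outside the 10, at a mean log2 CPM of at least 3, Ehbp1l1 was most like their mean, with an r of 0.95. It was followed by Cchcr1 (0.84), the cell cycle phosphatase gene Cdc25b (0.83), the clock gene Per1 (0.83), Gm42748 (0.83), Mcmbp (0.82), Arid5a (0.82) and Cyb561d1 (0.80), out of 10976 genes considered.

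For Fos alone the order was led by its own list. Outside genes were again limited to the 10976 with a mean log2 CPM of at least 3, while the 10 were kept at any level. None of these outside genes had a higher r with Fos than Npas4, Egr1 (0.86) or Fosb (0.85), and 4 had a higher r than Arc (0.82). Outside the list Arid5a (0.85), Ehbp1l1 (0.83), Cdc25b (0.82), Adamtsl4 (0.82), Dysf (0.81), Fmnl3 (0.80), Gm42748 (0.79) and Rreb1 (0.79) came closest. Ier2 stood apart, with an r of 0.38 that 836 of these outside genes exceeded. The median r with the mean of the 10 was 0.22 over 23 other early transcription factor genes and 0.29 over the 18 excitatory markers, against 0.08 over all genes.

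Other genes of the activity response did not pass in the comparison of genotypes either. Of 23 further early genes for transcription regulators 0 were called, with 17 above 0 and a median log2 fold change of 0.07. Those of smallest p were Ier3 (0.47 ± 0.20) and Egr4 (0.34 ± 0.27). Of 19 early genes for effectors 0 were called and 13 were above 0, with Plk3, a kinase, at 0.29 ± 0.14 and Trib1, a pseudokinase, at 0.23 ± 0.15. Of 13 late response genes 0 were called, 9 were above 0 and the median was 0.14. Nrn1, which encodes neuritin, had 0.46 ± 0.17, and Pcsk1, a prohormone convertase, had 0.25 ± 0.13. Every adjusted p of these genes in edgeR was 1.00.

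The factors and kinases upstream did not pass either. Of 19 upstream transcription factors and cofactors 0 were called, with a median of 0.02, and Srf had 0.13 ± 0.17 and Elk1 0.07 ± 0.11. Of 22 upstream kinases and phosphatases 0 were called, with a median of 0.02, Rps6ka5 at -0.11 ± 0.11 and Camk2a at 0.18 ± 0.18. Of 10 heat shock genes 0 were called, with Hspa1b at 0.47 ± 0.30 and Hsph1 at 0.13 ± 0.22 (adjusted p = 1.00 in edgeR).

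Along the background these lists differed in direction. Called lower with more background were 21 of 22 upstream kinases, 13 of 19 upstream factors, 7 of 10 heat shock genes and 15 of 15 PV markers, against 31.5% of all genes. Of 23 further early transcription regulator genes 12 were called higher and 6 lower, of 19 early effector genes 9 higher and 5 lower, and of 13 late response genes 7 higher and 4 lower. Endothelial and mural markers were called higher in 11 of 12 cases, against 44% of all genes. Summed endothelial and mural markers, led by Flt1 and Tek, were at 16.4 to 101 CPM in eGFP-GluA2 and 18.3 to 97.0 CPM in eGFP libraries. Cdh5 was the only one at 0 in some library. Astrocyte markers, led by Slc1a2 and Aldoc, summed to 123 to 275 CPM in eGFP-GluA2 and 126 to 356 CPM in eGFP libraries. Markers of other interneurons, led by Cck and Npy, summed to 110 to 198 CPM in eGFP-GluA2 and 107 to 180 CPM in eGFP libraries. The part of RNA from such cells in the slopes was not tested.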

How the data were processed

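Counts per gene, TPM and a table of normalized values with the authors' comparison were deposited for 16 libraries. Per the series' design text the authors used bcbio-nextgen 1.2.3, STAR on GRCm38, Sailfish and DESeq2; no source used here names the counter behind the deposited raw counts. The TPM table, also deposited, holds length-scaled estimates by the authors. The deposited signal values are gene counts divided by size factors; 100% were whole multiples of a single read within 0.001, and edgeR on these recovered reads (10477517 to 17382059 per library) called 3 genes. The authors' table also holds log2 fold changes, a test statistic (score) and p-values.

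Of 54532 identifiers 54495 were named from the GRCm38 reference annotation. edgeR 4.0.16 (R 4.3.3) used TMM scaling, filterByExpr, which kept 26257 genes with 99.2% of counts, and a robust quasi-likelihood F test with Benjamini-Hochberg adjustment at 0.05. CPM are TMM-scaled, except those of the background, which use the plain library total, and log2 CPM use a prior count of 2. Background is the log2 of the summed CPM of 1721 receptor genes of smell (Olfr and Vmn, autosomal). Slopes come from the model with genotype and background. Alternatives used DESeq2 1.42.0, limma 3.58.1 on log2(TPM + 0.5), sva 3.50.0, covariates, blocks and left-out libraries. The recovered-read fit and the TPM slopes were added after seeing the data. Scripts were tested on simulated data. The 10 genes and all lists were chosen with earlier results of these data known. Genes named outside the 10 are, of each pathway list, the 2 of smallest p where none passed; of each cell type list named, the most abundant; and the 8 most alike by Pearson r. Some genes that this rule names are not reported here. Gria2, Pvalb and Slc17a7 check the labels. No pair of libraries was identical (highest correlation 0.995).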

Additional observations from a re-analysis of the deposited data

Results flagged for a closer look

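A library stood apart from the rest of its group in 6 of 60 checks (10 genes, both genotypes, in CPM, log2 CPM and TPM), where chance gives about 1 in 20 and the units repeat the same libraries. In each case the gap to the next library was a large part of the range of the group. Nr4a1 in eGFP-GluA2 replicate 5 was at 30.3 CPM. Fosb in eGFP replicate 4 was at 31.5 CPM and 6.33 TPM. Arc in eGFP replicate 1 was at 14.7 CPM and 3.45 TPM, and Ier2 there at 2.41 TPM. On log2 CPM, the scale of the tests, no library stood apart in this way.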

How the results depend on the processing

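Over 36 alternatives (16 leave out a library) 0 of the 10 genes and 0 of 55 further early and late response genes were called, and the lowest adjusted p of any of the 10 was 0.197. Over all genes 1 was called; 2 were with upper-quartile scaling, library size only, limma on TPM with a pseudocount of 0.5, 0.1 or 1, 3 were with the excitatory covariate, background and excitatory covariates, high-background libraries left out and recovered reads, 8 were with a replicate block, 9 were with DESeq2, the background covariate and 1 surrogate variable and 11 were with background tiers as a block. Of the 10 genes, 8 were above 0, but 1 with the excitatory covariate, 2 with background and excitatory covariates, 3 with a replicate block and 3 in the same 14 libraries without that block. Log2 fold changes turned sign as follows: with DESeq2 size factors Junb -0.014. With upper-quartile scaling Junb -0.036. With library size only Fos -0.0077 and Junb -0.059. With DESeq2 Junb -0.0087. With limma-voom Fosb 0.22. With TPM + 0.5 Fosb 0.15 and Dusp1 0.019. With TPM + 0.1 Fosb 0.27 and Dusp1 0.019. With TPM + 1 Fosb 0.084 and Dusp1 0.019. With the background covariate Fosb 0.19. With background tiers as a block Fosb 0.16 and Junb -0.035. With 1 surrogate variable Fosb 0.22. With the excitatory covariate Fos -0.37, Junb -0.12, Egr1 -0.11, Egr3 -0.38, Npas4 -0.34, Arc -0.068 and Nr4a1 -0.18. With background and excitatory covariates Fos -0.34, Fosb 0.068, Junb -0.30, Egr1 -0.14, Egr3 -0.17, Npas4 -0.20, Arc -0.32 and Nr4a1 -0.26. With a replicate block Fos -0.20, Junb -0.12, Egr3 -0.086, Npas4 -0.14 and Nr4a1 -0.0027. With the same 14 libraries without a replicate block Fos -0.23, Junb -0.13, Egr3 -0.045, Npas4 -0.14 and Nr4a1 -0.021. With high-background libraries left out Fosb 0.50. With low-background libraries left out Fos -0.12 and Junb -0.048. With recovered reads Fos -0.055 and Junb -0.067. Leaving out each library in turn gave Arc 0.078 to 0.50, Dusp1 -0.098 to 0.016, Egr1 0.16 to 0.53, Egr3 0.081 to 0.37, Fos -0.023 to 0.29, Fosb -0.30 to 0.32, Ier2 0.21 to 0.41, Junb -0.071 to 0.055, Npas4 0.037 to 0.28, Nr4a1 0.016 to 0.39, 6 to 9 of 10 above 0 and 1 gene called. Slope calls ran from 3 (without eGFP replicate 1) to 6 of 10, and were 9 with library size only, where Dusp1 had 0.041. With library size only, 62.1% of all genes were called higher and 12.9% lower, and the median slope was 0.15. The shares of all genes are not given for the slope fits with a library left out. In those fits the Junb slope ran from -0.0089 to 0.046. Ier2 was above 0 in all 36 alternatives, from 0.16 to 0.42. The cause of these shifts was not tested. The 14-library fit lacks eGFP replicates 8 and 9, which were low for most of these genes, and it gives no cause. The labels do not say whether libraries that share a replicate number are pairs, and the values do not settle it. Correlations of deviations were 0.63 to 0.90 for numbers 1, 2, 3 and 7, and -0.03 to 0.21 for numbers 4 to 6. Of these, 6 of 7 were over 0.1 and 2 of 7 were best with their own number. Under the replicate block 0 of 10 genes passed. Over all genes 8 were called with the block, against 1 in the same 14 libraries without it. Low counts limit precision, with 13 counts of Fos and 15 of Fosb in eGFP replicate 9, and p-values measure the spread between these libraries.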
